A study of Mus musculus with 39 samples.

Results

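The arrays of cloned mouse 2-cell embryos injected with Spi-C mRNA at 1.0 mg/ml and at 0.1 mg/ml were set against each other, probe by probe. Members were the 4 arrays labelled with the higher and the 4 labelled with the lower concentration, 8 of the 39 arrays of the study. In both groups a cumulus cell nucleus of a (B6xDBA/2)F1 (BDF1) mouse had been transferred into an enucleated oocyte (somatic cell nuclear transfer, SCNT). Oocytes and cumulus cells were collected from superovulated females 15 h after human chorionic gonadotropin (hCG). The mRNA was injected at the pronuclear stage with a Piezo-driven micromanipulator, and the embryos were taken 24 h after activation at the 2-cell stage. The labels list no trichostatin A (TSA), the histone deacetylase inhibitor used in other arms of the study, for either group, and neither is an uninjected control. Each array held the RNA of 10 pooled embryos after 2 rounds of linear amplification, labelled with Cy3 and read in 1 colour. The injected mRNA was transcribed with T7 polymerase from full-length Spic cDNA cloned from 2-cell embryos. The study writes of Spi-C NT embryos without naming a concentration in its array results, and the comparison here asks what the 10-fold step in concentration changed. As embryos were pooled, fewer embryos that express a gene and less RNA per embryo cannot be told apart.

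Spi-C belongs to the ETS family of transcription factors, which bind DNA around a GGAA core, and to the small Spi branch of that family with PU.1 (Spi1) and Spi-B (Spib). It is best known in red pulp macrophages of the spleen and in developing B cells. In the mouse embryo the first large wave of transcription takes place at the 2-cell stage, when mRNAs stored by the oocyte are degraded and zygotic genes are switched on. Cloned embryos have to start this programme from a somatic nucleus, and the study treats Spic as a transcription factor of this period, with the translation factor gene Eif1a downstream of it.

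No probe on the array passed the limma test between the 2 concentrations. Of 39517 probes tested, 0 had an adjusted p under 0.01 in limma (Benjamini-Hochberg), a background of 0%, and 0 had one under 0.05, the lowest adjusted p being 0.14. A joint fit with the other 2-cell groups gave 2 probes (0.00506%), both with the higher mean at 1.0 mg/ml, and neither has a gene symbol or belongs to a gene list. The methods' one-way test over the 2-cell groups with Tukey's HSD, applied here to the 2 concentrations, gave 55 of the 39517 probes (28 higher, 27 lower). None of the 55 was a list member. The one-way p was adjusted over probes, and 17869 probes had one under 0.01, but Tukey's p under 0.01 was not adjusted. When Tukey's p was adjusted over all probes, 1 probe passed. At an unadjusted p under 0.05, 1126 probes (2.85%) had the higher mean at 1.0 mg/ml and 923 (2.34%) the lower mean, 5.19% in all, where 5% of unchanged probes fall under that limit. The 4 arrays of one concentration lay wholly above or below the 4 of the other for 1322 probes (3.35%), 725 of them (1.83%) above at 1.0 mg/ml and 597 (1.51%) below. The median log2 difference over all probes, 1.0 minus 0.1 mg/ml, was 0.02. The split depended on the scaling: with arrays centred on their medians it was 746 higher and 1342 lower (median -0.05), and with quantile normalization 958 and 1209 (median -0.01). Arrays of different concentrations differed by a root mean square of 1.02 to 1.12 (log2) over all probes, which lay within the range of 0.96 to 1.15 for pairs of arrays of the same concentration. Pearson's r between arrays, across probes, was 0.960 to 0.972 within concentrations and 0.961 to 0.968 between them.

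The 8 arrays were alike in quality. Their 75th percentiles of intensity were 2140 to 2639 at 1.0 mg/ml and 2336 to 2707 at 0.1 mg/ml, and 71.7 to 75% and 69.4 to 72.4% of the probes were well above background. They came from 2 slides read on 1 day with 1 scanner, each slide holding 2 arrays of each concentration. On both slides the arrays of 1.0 mg/ml held positions 1 and 2 and those of 0.1 mg/ml positions 3 and 4, so position on the slide and concentration cannot be told apart. Oocytes and the other 2-cell groups were read with another scanner model and software version, and cumulus cells on another slide and day, so their levels are given as a description. Of 24 cumulus cell markers, 23 were tested, and the median of their levels was -4.65 to -3.77 in the arrays of 1.0 mg/ml, -4.80 to -4.03 at 0.1 mg/ml and 1.52 to 2.42 in cumulus cells. Levels are throughout log2 intensities relative to the 75th percentile of the same array. The 20 early 2-cell genes tested had array medians of 2.55 to 2.93 and 2.20 to 2.87 in the 2 concentrations and -3.14 to -1.76 in oocytes. The median of every array of both groups thus lay above those of the oocytes.

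Spic itself was measured by 2 probes, both well above background on all 8 arrays, and neither gave a higher signal at the higher concentration. With the brighter probe (A_51_P389885), the levels at 1.0 mg/ml were 1.42, 1.78, 1.63 and 1.11 in replicates 1 to 4, with a mean of 1.49 ± 0.29 (SD, n = 4). At 0.1 mg/ml they were 1.66, 1.53, 1.58 and 1.54, with a mean of 1.58 ± 0.06 (SD, n = 4). The 4 arrays of 0.1 mg/ml lay close together and wholly inside the range of the 4 arrays of 1.0 mg/ml, of which replicate 4 was the lowest of all 8. The log2 difference was -0.09 ± 0.17 (SE) with a 95% interval of -0.48 to 0.29 (adjusted p = 0.94 in limma), and an exact two-sided permutation test over the 70 divisions of the arrays gave p = 0.63. The upper end of the interval allows a ratio of 1.23, against the 10-fold ratio of the injected concentrations. The difference was 0.00 on slide 1 and -0.19 on slide 2.

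The second Spic probe (A_52_P361323) read 0.98, 1.30, 1.03 and 0.51 at 1.0 mg/ml and 1.04, 1.04, 0.99 and 1.00 at 0.1 mg/ml. It showed the same picture, with a log2 difference of -0.06 ± 0.18 (SE), an interval of -0.47 to 0.35 (adjusted p = 0.96 in limma) and an upper ratio of 1.28. Without replicate 4 of 1.0 mg/ml the difference of the first probe was 0.03, which is the only removal of a single array that turned its sign. Where these probes lie in the transcript and how they read the synthetic mRNA was not given in the sources used here, and its share in the signal was not tested. On the same scale the first probe averaged -0.77 ± 0.93 (SD, n = 7) in oocytes, 3.94 ± 0.29 (n = 6) in IVF embryos, 2.04 ± 0.35 (n = 8) in cloned embryos without TSA, 2.99 ± 0.27 (n = 6) in those with TSA and -5.32 ± 1.98 (n = 4) in cumulus cells. Both Spi-C concentrations lay between the oocytes and the uninjected TSA(-) embryos in this order, and scanner and group cannot be told apart in it.

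The promoter of the endogenous Spic gene is shown for the ETS letters it holds. In the RefSeq entry for GRCm38, from 250 bases before to 50 after the gene's start (chr10:88682974-88683273, minus strand), the ETS core GGAA or its reverse complement TTCC, in capitals, is found at 2 places. The longer Spi/PU.1 form GAGGAA is not in this window.
Spic: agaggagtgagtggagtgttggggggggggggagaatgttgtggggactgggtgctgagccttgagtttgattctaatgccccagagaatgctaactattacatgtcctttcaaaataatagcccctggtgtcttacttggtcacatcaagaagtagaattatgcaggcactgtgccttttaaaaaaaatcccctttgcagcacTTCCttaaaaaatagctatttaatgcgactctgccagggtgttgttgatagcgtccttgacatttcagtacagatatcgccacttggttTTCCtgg

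**Figure D1:**
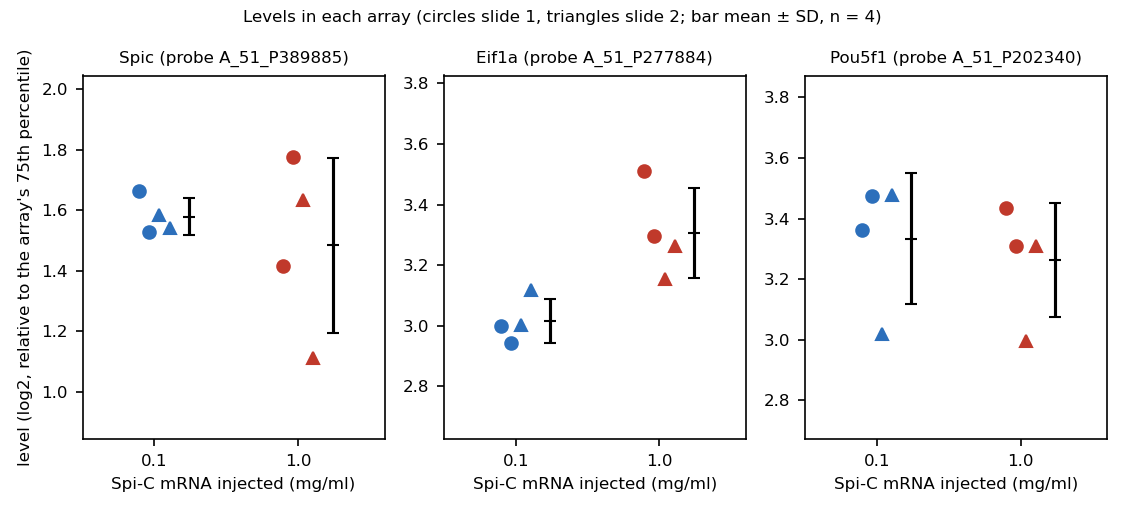
Levels of Spic, Eif1a and Pou5f1 (log2 intensity relative to the array's 75th percentile) in each of the 4 arrays injected at 0.1 mg/ml (blue) and the 4 at 1.0 mg/ml (red), 1 panel a gene, each y axis covering the same number of log2 units. Circles are arrays of slide 1 and triangles of slide 2, and bars show mean ± SD; the groups overlap for Spic and Pou5f1 and do not for Eif1a.

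Eif1a, which encodes a translation initiation factor that binds the small ribosomal subunit, is treated in the study as a gene downstream of Spic, and its groups did not overlap. Its brighter probe (A_51_P277884) read 3.51, 3.30, 3.16 and 3.26 at 1.0 mg/ml, a mean of 3.31 ± 0.15 (SD, n = 4). At 0.1 mg/ml it read 3.0, 2.94, 3.0 and 3.12, a mean of 3.02 ± 0.07 (SD, n = 4). All 4 arrays of the higher concentration lay above all 4 of the lower. The log2 difference was 0.29 ± 0.13 (SE), 1.22-fold, with a 95% interval of 0.00 to 0.58 whose lower end lay just under 0, and it did not pass the test (adjusted p = 0.85 in limma). The exact permutation test gave p = 0.029, the smallest that 4 against 4 arrays allow, and 0.14 after adjustment over the 5 probes of Spic, Eif1a and Pou5f1. The difference was 0.43 on slide 1 and 0.15 on slide 2. The second Eif1a probe (A_52_P331911) read -2.53 to -4.21 at 1.0 mg/ml and -2.96 to -4.66 at 0.1 mg/ml, so its groups overlapped, with a difference of 0.59 ± 0.46 (SE) and an interval of -0.48 to 1.66 (adjusted p = 0.85 in limma). The first probe averaged 4.07 ± 0.28 (SD, n = 6) in IVF, 3.06 ± 0.24 (n = 8) in TSA(-) and 3.26 ± 0.16 (n = 6) in TSA(+) embryos.

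Pou5f1 (Oct4), the transcription factor that maintains the pluripotent state, has also been linked to Spic. Its probe read 3.43, 3.31, 3.0 and 3.31 at 1.0 mg/ml and 3.36, 3.47, 3.02 and 3.48 at 0.1 mg/ml, and the lowest array of each concentration was replicate 3. The log2 difference was -0.07 ± 0.16 (SE) with an interval of -0.45 to 0.31 (adjusted p = 0.95 in limma; exact permutation p = 0.51), so a ratio above 1.24 lay outside the interval.

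The ETS family was next examined as the set of factors that share the DNA-binding domain of Spi-C. Of 25 ETS factor genes listed, 24 were tested, and 19 were well above background on all 8 arrays. None passed the test, against 0% of all probes. The log2 difference was above 0 for 7 and below 0 for 17, where 52.9% of all probes lay above 0, and the median was -0.14 beside 0.02 for all probes. This median lay below 0 under all 22 alternatives tried, from -0.21 to -0.05. Several of these, such as the slide and replicate blocks and the joint fit, left the median unchanged, and all differences rest on the same 8 arrays. The 95% interval lay inside a 2-fold change for 14 of the 24 and inside 1.5-fold for 6.

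Among the 19 ETS factors well above background on all 8 arrays, Gabpa, the DNA-binding subunit of the GABP factor, and Elf1 had the narrowest intervals. Gabpa read 4.86, 4.66, 4.73 and 4.70 at 1.0 mg/ml and 4.69, 4.66, 5.00 and 4.79 at 0.1 mg/ml, a difference of -0.05 ± 0.13 (SE) with an interval of -0.35 to 0.25. Elf1 read 0.43 to 0.66 and 0.49 to 0.72, a difference of -0.06 ± 0.12 (SE) with an interval of -0.34 to 0.22. The groups of both genes overlapped almost fully. Differences between 0 and 0.20 were seen for Elf2 (0.19 ± 0.16, SE), Erf (0.14 ± 0.21), Etv1 (0.12 ± 0.16), Ets1 (0.03 ± 0.77) and Elk4 (0.02 ± 0.14). Ehf (-0.03 ± 0.17, SE), Spdef (-0.12 ± 0.51), Ets2 (-0.15 ± 0.24) and Elk3 (-0.24 ± 0.28) lay a little below 0. Elf3 is an epithelial ETS factor that the study set beside Spic. It read -0.15, -0.66, -0.45 and -0.27 at 1.0 mg/ml and -0.50, -0.19, 0.12 and 0.13 at 0.1 mg/ml, a difference of -0.27 ± 0.19 (SE) with overlapping groups.

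The PEA3 factors Etv4 (-0.30 ± 0.19, SE) and Etv5 (-0.40 ± 0.26), the repressor Etv6 (-0.36 ± 0.19) and the factors Erg (-0.41 ± 0.53), Elf4 (-0.45 ± 0.31) and Fev (-0.50 ± 0.45) had the lowest differences among those well above background, and each interval held 0. Etv2, known for starting the blood and endothelial lineages, was the one ETS factor with an unadjusted p under 0.05. It read -4.21, -3.98, -3.82 and -4.41 at 1.0 mg/ml and -4.58, -6.12, -4.50 and -6.05 at 0.1 mg/ml, so its groups did not overlap, replicates 1 and 3 of the lower concentration lying close to the higher one. The difference was 1.20 ± 0.43 (SE), with an interval of 0.21 to 2.19 (0.65 with normexp background correction), and did not pass the test (adjusted p = 0.85 in limma). PU.1 (Spi1) and Spi-B (Spib), the closest relatives of Spi-C, were well above background on 3 and 0 of the 4 arrays of 1.0 mg/ml and on 2 and 1 of 0.1 mg/ml. The difference of Spi1 was 0.06 ± 0.31 (SE), and for Spib these levels allow no exact difference. Fli1, Elf5 and Etv3 were likewise dim. The intervals of Fli1 and Elf5 were wide, reaching from -4.86 to 0.98 for Elf5, and that of Etv3 was -0.80 to 0.64.

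**Figure D2:**
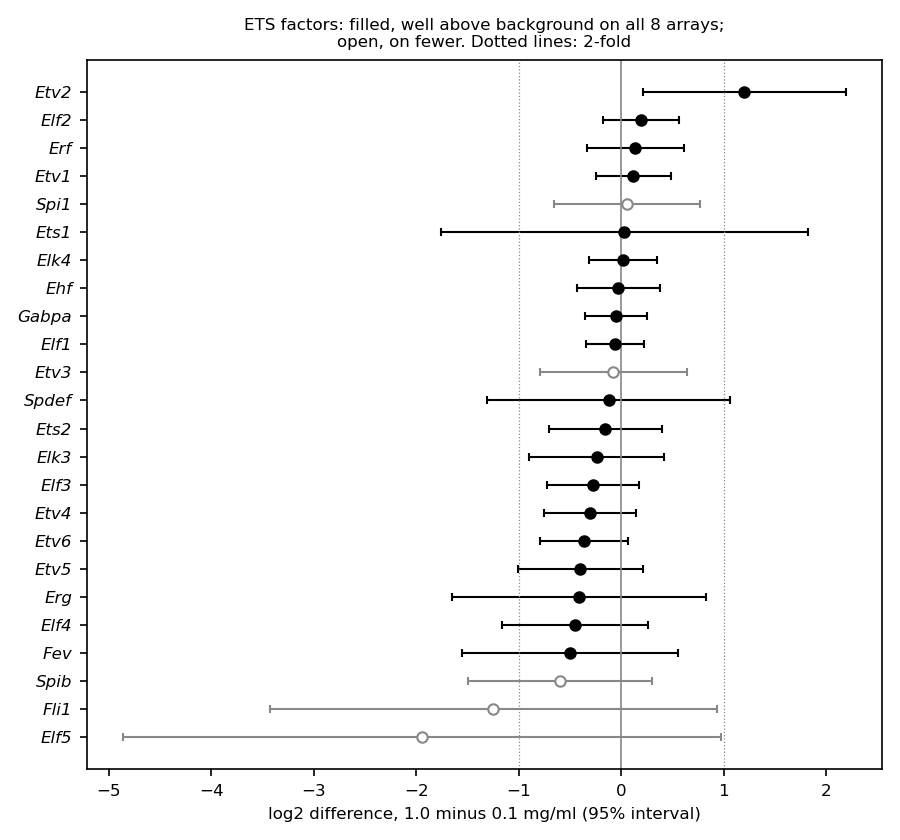
Log2 difference, 1.0 minus 0.1 mg/ml, of each of the 24 ETS factors tested, with the 95% interval of limma (x axis), genes in order of the difference (y axis). Filled points are the 19 genes well above background on all 8 arrays and open points the other 5, whose values rest in part on levels at background; dotted lines mark a 2-fold change, and Etv2 is the one gene whose interval does not cross 0.

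Proteins that work with ETS factors on DNA, or that switch them on, were listed as 15 genes and all were tested. None passed the test. The differences lay above 0 for 7 and below 0 for 8, with a median of -0.08. The mitogen-activated kinase Mapk3 (0.02 ± 0.13, SE) and the Runx partner Cbfb (0.18 ± 0.16) were among the brightest probes of this list, and their groups overlapped. Runx1, a DNA-binding partner of ETS factors in blood cells, had an unadjusted p of 0.00058. It read -8.73, -8.68, -6.06 and -8.81 at 1.0 mg/ml, where it was well above background on 1 of 4 arrays, and -2.56, -3.96, -2.87 and -5.07 at 0.1 mg/ml, where it was so on 4 of 4. The groups did not overlap. The difference of -4.46 ± 0.79 (SE) rests on levels at background in 3 of the 4 arrays of 1.0 mg/ml and did not pass the test (adjusted p = 0.59 in limma); it was -5.45 on slide 1, -3.47 on slide 2 and -1.85 with normexp background correction.

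Genes described as downstream of Spi-C or PU.1 in macrophages and B cells were taken with Eif1a and Pou5f1 as a list of 20, of which 16 were tested. None passed the test, 8 lay above and 8 below 0, and the median was 0.01. Btk, the tyrosine kinase of B cell receptor signalling, differed by 0.10 ± 0.15 (SE). Slc40a1 (0.18 ± 0.31) and Hmox1 (0.08 ± 0.17), the iron exporter and the haem-degrading enzyme of red pulp macrophages, had intervals of -0.53 to 0.89 and -0.32 to 0.49. Syk, a kinase of immune receptors, had an unadjusted p of 0.042 with a difference of -1.21 ± 0.50 (SE), read -7.65 to -6.25 at 1.0 mg/ml and -6.69 to -4.59 at 0.1 mg/ml, and was well above background on 1 and 3 of 4 arrays (adjusted p = 0.85 in limma).

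Promoters of the genes tested were then searched for ETS letters, on both strands, in the RefSeq windows of GRCm38. GGAA was found in 96.0% of all 32851 windows of this length and tells little apart. GAGGAA, which holds GGAA, was found in 28.3%, GAGGAAGT, which holds both, in 3.2%, and CCGGAAGT, typical of Gabpa and the other factors of its class, in 3.89%. Of 13008 tested genes with a window, 3995 held GAGGAA, and their median log2 difference was 0.01, as it was for the 9013 genes without. An unadjusted p under 0.05 was found for 4.01% of the former and 4.97% of the latter. For the 441 genes with GAGGAAGT the median was -0.004 and the middle 50% of genes lay between -0.19 and 0.17, and for the 874 genes with CCGGAAGT it was 0.01, between -0.15 and 0.14. No gene with either motif passed the test. The window of Eif1a was not used here.

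Within the lists, GAGGAA was found for 4 of 19 ETS factors with a window (Elk4, Elf4, Erf and Gabpa), whose median difference was -0.02, and for 2 of 11 early 2-cell genes, Pramel6 and Usp17la, which differed by -0.18 ± 0.19 (SE) and -0.14 ± 0.21. The windows of Elk4 (chr1:132007370-132007669, plus strand) and Gabpa (chr16:84834874-84835173, plus strand) are shown as those of the 2 ETS factors that hold the 8-base form GAGGAAGT, in capitals, and those of Pramel6 (chr2:87506315-87506614, plus strand) and Usp17la (chr7:104856766-104857065, plus strand) as those of the 2-cell genes with GAGGAA, in capitals.
Elk4: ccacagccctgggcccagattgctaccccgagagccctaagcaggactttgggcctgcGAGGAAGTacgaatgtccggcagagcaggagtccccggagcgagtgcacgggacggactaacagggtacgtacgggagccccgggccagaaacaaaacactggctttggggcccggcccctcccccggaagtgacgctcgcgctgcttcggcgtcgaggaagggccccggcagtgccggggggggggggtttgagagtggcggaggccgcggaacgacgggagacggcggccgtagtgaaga
Gabpa: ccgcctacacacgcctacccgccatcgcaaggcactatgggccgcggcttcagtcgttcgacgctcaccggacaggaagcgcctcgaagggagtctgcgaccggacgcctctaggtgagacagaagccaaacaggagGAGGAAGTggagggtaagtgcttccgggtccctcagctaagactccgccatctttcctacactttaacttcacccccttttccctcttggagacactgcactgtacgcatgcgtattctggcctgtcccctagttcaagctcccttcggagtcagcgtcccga
Pramel6: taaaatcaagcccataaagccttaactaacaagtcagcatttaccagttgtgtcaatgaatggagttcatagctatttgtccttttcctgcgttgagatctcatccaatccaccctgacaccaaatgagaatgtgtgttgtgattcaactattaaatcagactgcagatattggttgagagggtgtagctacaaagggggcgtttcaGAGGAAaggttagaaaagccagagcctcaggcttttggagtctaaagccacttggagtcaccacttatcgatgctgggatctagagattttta
Usp17la: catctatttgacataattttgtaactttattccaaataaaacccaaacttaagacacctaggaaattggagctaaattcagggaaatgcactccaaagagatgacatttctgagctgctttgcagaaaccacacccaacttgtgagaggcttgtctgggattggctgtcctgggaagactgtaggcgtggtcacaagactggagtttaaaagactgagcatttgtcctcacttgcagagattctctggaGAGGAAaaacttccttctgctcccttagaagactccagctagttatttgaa
The 4 genes had overlapping groups and differences between -0.18 and 0.02. A match of letters is a description of these windows and not a bound site.

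Early 2-cell genes are transcribed in the first burst after fertilization, and many belong to gene families. Of 43 genes listed, 20 were matched by accession and tested, and 19 were well above background on all 8 arrays. None passed the test and none had an unadjusted p under 0.05. The differences lay above 0 for 12 and below 0 for 8, with a median of 0.08 that ranged from -0.03 to 0.18 over the 22 alternatives and was below 0 in 3 of them. Here too, several alternatives left the median unchanged. The intervals of 17 of the 20 lay inside a 2-fold change and of 9 inside 1.5-fold.

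Zscan4c, a zinc finger gene that marks 2-cell embryos and protects telomeres, varied more between replicates than between concentrations. It read 0.35, 1.77, 0.08 and -0.78 at 1.0 mg/ml and 0.20, 1.00, 1.48 and 0.35 at 0.1 mg/ml, a difference of -0.40 ± 0.55 (SE) with an interval of -1.68 to 0.88. Zfp352, a zinc finger gene of the same burst, read 4.28, 4.81, 4.49 and 4.58 at 1.0 mg/ml and 4.69, 3.57, 4.56 and 3.79 at 0.1 mg/ml. Its difference was 0.39 ± 0.29 (SE), the groups overlapping because replicates 1 and 3 of the lower concentration lay within the higher group. Tcstv1 (0.14 ± 0.24, SE), Tcstv3 (0.11 ± 0.31) and Gm5662 (0.16 ± 0.26) differed by less than their standard errors. These families hold near-identical copies, so a probe may read several of them.

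Sp110, AF067063 and Nelfa were the brightest probes of the list. Sp110 read 7.16, 7.13, 6.92 and 7.13 at 1.0 mg/ml and 7.08, 6.87, 7.29 and 7.16 at 0.1 mg/ml, a difference of -0.02 ± 0.14 (SE). AF067063 differed by -0.04 ± 0.20 and Nelfa, a subunit of the complex that pauses RNA polymerase II, by -0.06 ± 0.13. The intervals of Duxbl1 (0.02 ± 0.14, SE), Dppa2 (-0.02 ± 0.14), Dppa4 (0.04 ± 0.23) and Pramel7 (0.15 ± 0.13) lay inside a 1.5-fold change in either direction, the widest being that of Dppa4, -0.49 to 0.57. Usp17lc had the largest difference, 1.19 ± 0.80, on a dim probe that read -5.67 to -2.91 and -6.72 to -3.83. Array medians of the 20 genes were 2.80, 2.93, 2.64 and 2.55 at 1.0 mg/ml and 2.73, 2.57, 2.87 and 2.20 at 0.1 mg/ml, and the groups overlapped.

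**Figure D3:**
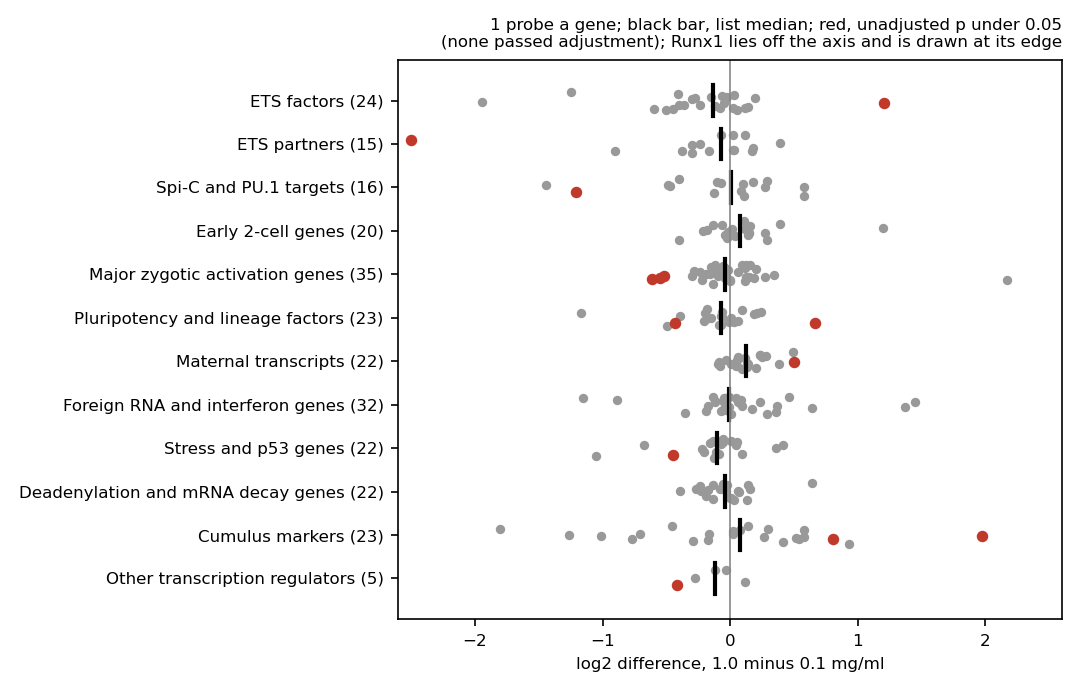
Log2 difference, 1.0 minus 0.1 mg/ml (x axis), of every tested member of the 12 gene lists other than Spic itself (y axis, number tested in parentheses), 1 probe a gene. Black bars are list medians, which lie between -0.14 and 0.12; red points have an unadjusted p under 0.05 (13 of 254 distinct members) and none passed the adjusted test. Runx1, at -4.46, lies off the axis and is drawn at its edge.

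Genes of ribosome formation, RNA synthesis and the cell cycle, which are transcribed broadly in the major wave of zygotic activation, gave a like result. Of 36 listed, 35 were tested, none passed, 14 lay above and 21 below 0, and the median was -0.04. Intervals were inside a 2-fold change for 33 of them. Odc1, the first enzyme of polyamine synthesis, read 6.59, 6.64, 6.54 and 6.57 at 1.0 mg/ml and 6.68, 6.65, 6.59 and 6.49 at 0.1 mg/ml, a difference of -0.02 ± 0.11 (SE). Nop56, a protein of the nucleolar RNA-modifying particles, differed by -0.04 ± 0.13 and the cyclin Ccnb1 by 0.18 ± 0.15. Polr1a, the largest subunit of RNA polymerase I, which makes ribosomal RNA, had the smallest unadjusted p of the list, 0.0028. It read 0.43, 0.52, 0.35 and 0.50 at 1.0 mg/ml and 0.94, 0.90, 0.89 and 1.14 at 0.1 mg/ml, a difference of -0.52 ± 0.12 (SE) in groups that did not overlap (adjusted p = 0.85 in limma). Its partner subunit Polr1b read 1.39, 1.78, 1.74 and 1.43 against 1.89, 2.53, 1.80 and 2.56, a difference of -0.61 ± 0.23 (unadjusted p = 0.029), and the heat shock gene Hspa1a, one of the first zygotic transcripts, 1.57, 1.92, 2.11 and 2.17 against 2.36, 2.57, 2.70 and 2.32, a difference of -0.55 ± 0.18 (unadjusted p = 0.015). The groups of both did not overlap, and the adjusted p was 0.85 in limma for each. Polr1e, a further subunit of the polymerase, read 1.62 to 1.94 and 1.30 to 1.87 and differed by 0.12 ± 0.16 (SE). Srsf3, a splicing factor, had the largest difference of the list, 2.17 ± 1.03, on a probe well above background on 4 and 2 of 4 arrays.

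Of 24 stored maternal transcripts listed, 22 were tested, all of them well above background on all 8 arrays. None passed the test. The differences lay above 0 for 18 and below 0 for 4, with a median of 0.12, and over 21 alternatives 13 to 18 lay above 0 with medians of 0.05 to 0.18. Several of these alternatives, on the same 8 arrays, left the differences unchanged. Oosp1 (0.05 ± 0.14, SE), Bmp15 (0.13 ± 0.12) and Dppa3 (0.05 ± 0.14), the brightest probes, had overlapping groups. Zar1, which encodes an RNA-binding protein of the oocyte-to-embryo transition, read 1.00, 1.25, 1.53 and 1.04 at 1.0 mg/ml and 0.66, 0.63, 0.88 and 0.65 at 0.1 mg/ml. Its groups did not overlap, and the difference of 0.50 ± 0.16 (SE) had an unadjusted p of 0.014 (adjusted p = 0.85 in limma). Array medians of the list were 2.62 to 2.82 at 1.0 mg/ml and 2.5 to 2.78 at 0.1 mg/ml, and 5.41 to 6.00 in oocytes.

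A list of 35 RNA sensors and interferon-induced genes was included because the injected RNA is foreign to the cell. Of these, 32 were tested, 20 were well above background on all 8 arrays, and none had an unadjusted p under 0.05 on its brightest probe. The differences lay above 0 for 15 and below for 17, with a median of -0.01. Ifng (-0.12 ± 0.24, SE), Adar (-0.05 ± 0.16) and Cxcl10 (-0.01 ± 0.17) were the brightest. The sensor genes Ddx58 (0.09 ± 0.15, SE) and Ifih1 (-0.01 ± 1.19, dim on several arrays) and the effector Isg15 (-0.19 ± 0.24) had intervals that held 0. Irf9, a factor of the interferon response, differed by 0.29 ± 0.16 (SE) on its brightest probe (unadjusted p = 0.10). Its dimmer probe was well above background on all 4 arrays of 1.0 mg/ml and none of 0.1 mg/ml. The mean of this probe was at least 2.92-fold higher, a bound set without the spread between arrays (unadjusted p = 0.0090, adjusted p = 0.85 in limma). Tlr7 was not well above background on any of the 8 arrays, so no statement on it can be made from this probe.

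Enzymes that shorten or degrade mRNA and their guides were listed as 26 genes, of which 22 were tested. None passed and none had an unadjusted p under 0.05, with 8 above and 14 below 0 and a median of -0.04. Pan3 (-0.06 ± 0.14, SE) and Cnot6l (-0.14 ± 0.17), parts of the poly(A)-removing complexes, and the adaptor Btg4 (0.06 ± 0.14) had overlapping groups. Of 22 stress and p53 genes, all tested, none passed, with 6 above and 16 below 0 and a median of -0.10. The chaperone Hspa5 (-0.09 ± 0.14, SE), Gadd45b (-0.11 ± 0.16) and the p53 inhibitor Mdm2 (0.10 ± 0.14) differed by less than their errors. The immediate early factor Egr1 read 2.37, 2.44, 2.79 and 2.56 at 1.0 mg/ml and 2.79, 3.23, 2.84 and 3.10 at 0.1 mg/ml, a difference of -0.45 ± 0.16 in groups that did not overlap (unadjusted p = 0.025, adjusted p = 0.85 in limma).

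Of 25 pluripotency and lineage factors, 23 were tested and none passed, with 8 above and 15 below 0 and a median of -0.07. Klf17 (-0.18 ± 0.13, SE), Zfp42 (0.09 ± 0.15) and Sall4 (-0.07 ± 0.17) were the brightest. Nanog, a factor of the inner cell mass, read -3.94, -4.28, -3.55 and -3.69 at 1.0 mg/ml and -5.07, -4.50, -4.53 and -4.03 at 0.1 mg/ml, a difference of 0.67 ± 0.26 (unadjusted p = 0.034), and the endoderm factor Gata4 differed by -0.43 ± 0.16 (unadjusted p = 0.030). Neither passed the test (adjusted p = 0.85 in limma for each). A dimmer Gata4 probe differed by -0.14 (unadjusted p = 0.67 in limma). A list of 5 regulators that the study names beside Spic (Elf3 among them) had a median of -0.12, with 1 above and 4 below 0, and none passed. Hipk1, a nuclear kinase, read 3.10, 3.02, 3.36 and 3.0 at 1.0 mg/ml and 3.69, 3.53, 3.48 and 3.43 at 0.1 mg/ml, groups that did not overlap, with a difference of -0.41 ± 0.14 (unadjusted p = 0.017, adjusted p = 0.85 in limma). Ppp1r8 (-0.03 ± 0.14, SE), Ifng (-0.12 ± 0.24) and Kdm4d (0.12 ± 0.34) had overlapping groups.

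Among the cumulus markers, 23 tested, 14 lay above and 9 below 0, with a median of 0.08, and none passed the test. Cyp19a1 (0.30 ± 0.28, SE), Amhr2 (-0.29 ± 0.14) and Col4a1 (0.02 ± 0.28) were the brightest, and the groups of Amhr2 did not overlap. Vim, the intermediate filament gene, read -0.73, -1.40, -2.21 and -1.35 at 1.0 mg/ml and -2.23, -2.26, -2.41 and -2.0 at 0.1 mg/ml (difference 0.80 ± 0.30, unadjusted p = 0.028). The receptor gene Lhcgr was well above background on 2 and 0 of 4 arrays (unadjusted p = 0.035), so no exact difference is given. Its fitted difference was 0.56 under normexp background correction. The adjusted p was 0.85 in limma for Vim and for Lhcgr. Over all 12 lists and Spic, 254 distinct genes were tested, 0 passed, and 13 (5.12%) had an unadjusted p under 0.05, beside 5.19% of all probes. Where a gene had further probes, 129 in all, 45 of them differed in sign from the brightest, and none had an interval apart from it.

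As no call was made, the size of any effect of the concentration was bounded from the intervals. Over all 39517 probes the median standard error was 0.27 and the median half-width of the 95% interval 0.63, a 1.55-fold change. For 56.1% of the probes the interval lay inside a 2-fold change in either direction, for 28.8% inside 1.5-fold and for 81.4% inside 4-fold. Of the 25538 probes well above background on all 8 arrays, 74.0% had an interval inside 2-fold, 39.8% inside 1.5-fold and 96.0% inside 4-fold, with a median half-width of 0.48 (1.39-fold). Precision followed the level. Among 10 equal groups of probes by level, in the brightest the median half-width was 0.33 and 99.4% were bounded within 2-fold, in the next 96.9%, and in the second dimmest the half-width was 1.54 and 11.9% were bounded. In the dimmest group none of the probes was well above background on all 8 arrays, and the narrower intervals there describe the background. The median difference was also -0.19 in that group, against 0.00 to 0.09 in the others.

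**Figure D4:**
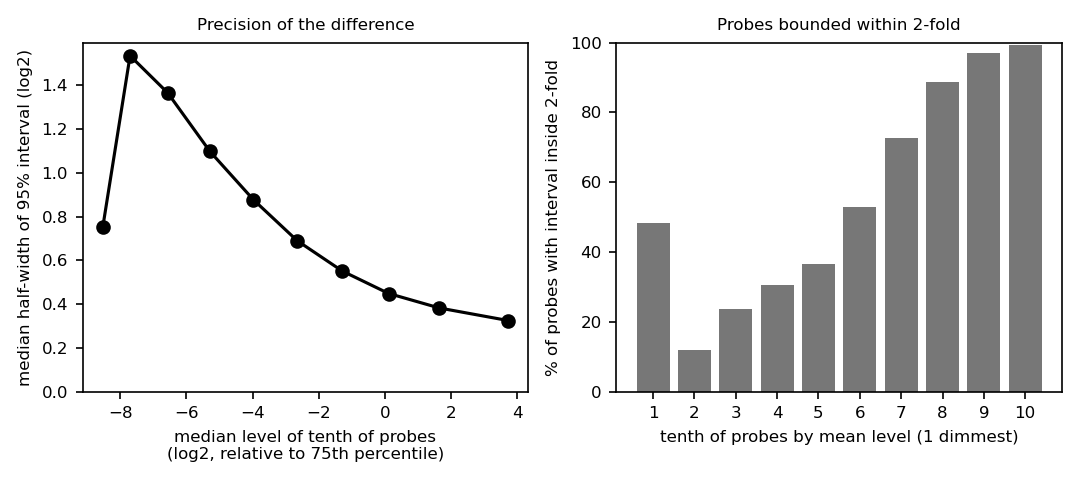
Left, median half-width of the 95% interval of the log2 difference (y axis) against the median level (x axis, log2 relative to the 75th percentile) for 10 equal groups of probes ordered by mean level. Right, percentage of probes in each group whose interval lies inside a 2-fold change; from the second dimmest to the brightest group the share goes from 11.9% to 99.4%.

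These limits concern single probes. A call among 39517 probes needed more: a probe with the median standard error would have had to differ by 4.59 (log2), 24.1-fold, to be the first to pass at an adjusted p of 0.01, and by 3.5, 11.3-fold, if well above background on all 8 arrays. Smaller differences with the usual spread could therefore be bounded but not called with 4 arrays a group. Differences of more than 2-fold between the means were found for 7.42% of all probes and for 1.59% of those well above background on all 8 arrays, whose differences ran from -0.48 at the 5th to 0.55 at the 95th percentile.

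The genes with the smallest unadjusted p in each direction, among probes with a gene symbol that were well above background on all 8 arrays, were Zfp24, Pde1a, Myoz1, Saxo2 and Abca13 with the higher mean at 1.0 mg/ml and Adam11, Kif9, Eif4e2, Arvcf and Lrrc24 with the lower. None passed the test, and since they were ranked by the same p their groups were bound to lie apart. Zfp24, a zinc finger transcription factor, read -3.61, -3.85, -3.59 and -3.57 at 1.0 mg/ml and -4.77, -4.99, -4.76 and -5.13 at 0.1 mg/ml. Its difference was 1.26 ± 0.14 (SE), 2.39-fold (0.73 with normexp background correction), with an interval of 0.93 to 1.59 (unadjusted p = 2.9e-05, adjusted p = 0.16 in limma), 1.15 on slide 1 and 1.37 on slide 2. The other Zfp24 probe differed by 1.01 (unadjusted p = 0.0030). Myoz1, a Z-disc protein of muscle, differed by 0.94 ± 0.15 (SE) and by 1.22 on its other probe. Saxo2, a microtubule-associated protein, read -1.67, -2.37, -1.68 and -2.34 at 1.0 mg/ml and -4.49, -4.13, -3.30 and -4.71 at 0.1 mg/ml, a difference of 2.14 ± 0.34. Pde1a, a phosphodiesterase of cyclic nucleotides, differed by 1.46 ± 0.22, by 0.27 on a brighter probe (unadjusted p = 0.37), and by 1.68 and 2.52 on 2 dimmer probes that were well above background on 1 and 3 of the 8 arrays. Abca13, a lipid transporter, differed by 0.63 ± 0.11.

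In the other direction, Adam11 differed by -1.12 ± 0.16 (SE; -0.43 with normexp background correction), Arvcf, a catenin of cell junctions, by -0.58 ± 0.11 and Lrrc24 by -0.78 ± 0.15. Kif9, a kinesin of cilia, read -1.13, -0.76, -1.06 and -1.21 at 1.0 mg/ml and 0.00, -0.34, 0.03 and -0.16 at 0.1 mg/ml, a difference of -0.92 ± 0.15. Eif4e2, which binds the cap of mRNAs and limits their translation, read -3.43, -4.07, -3.71 and -2.93 against -1.54, -1.96, -1.22 and -2.35 on the probe ranked here (A_52_P580842), a difference of -1.77 ± 0.32. The other 3 probes of Eif4e2, all well above background, differed by -0.01, 0.02 and -0.17, so the difference was not shared by the gene's other probes. Adjusted p values of the 10 genes were 0.16 to 0.69 in limma. All 10 differences had the same sign on both slides, which groups that lie wholly apart bring with them, so this adds no evidence.

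**Figure D5:**
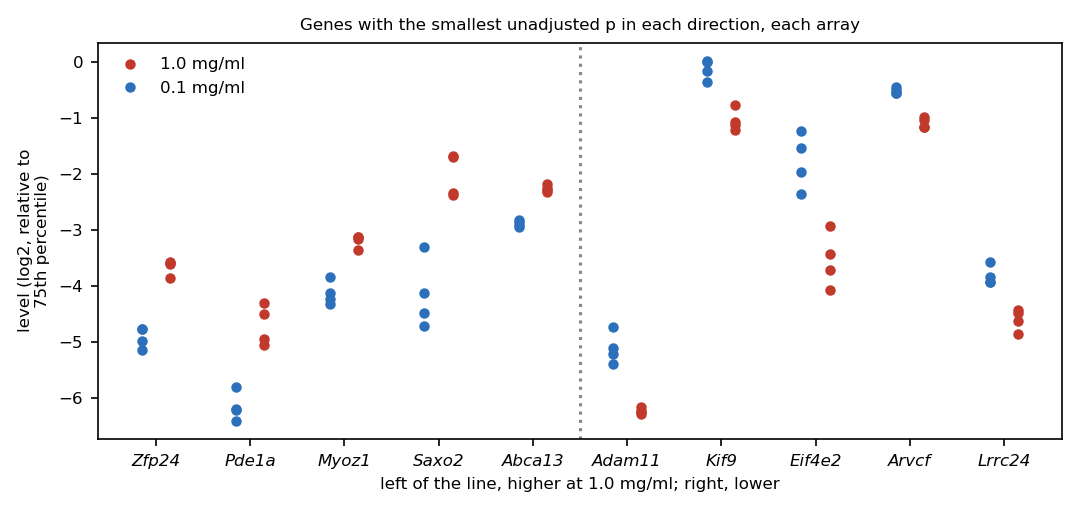
Levels (y axis, log2 intensity relative to the array's 75th percentile) of the 5 genes with the smallest unadjusted p in each direction (x axis), each point 1 array, 4 at 1.0 mg/ml (red) and 4 at 0.1 mg/ml (blue). The genes were chosen for this separation, so groups lie apart for all 10; levels are to be compared within a gene only.

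Detection gave few further differences. Of the 39517 probes tested, 29 were well above background on all 4 arrays of 1.0 mg/ml and on none of 0.1 mg/ml, and 12 the other way round. On average 73.3% of all probes were well above background at 1.0 mg/ml and 71.3% at 0.1 mg/ml. Whether this accounts for the unequal counts was not tested. A gene symbol was matched for 12 of the 29 and 5 of the 12. The mean of the brighter group was at least 1.14 to 24.1-fold higher for the 29 probes, with a median of 3.11-fold, and at least 2.99 to 17.4-fold higher for the 12, with a median of 5.67-fold. These bounds set the mean of the bright group against the lowest signal well above background on each dim array, or the probe's own signal there if higher. They concern the means of these arrays only and leave out the spread between arrays. The mean of Cckar, the receptor of cholecystokinin, was at least 6.63-fold higher at 1.0 mg/ml (unadjusted p = 0.00037, adjusted p = 0.48 in limma), and that of Steap4, a metalloreductase, at least 7.98-fold higher at 0.1 mg/ml (adjusted p = 0.65 in limma). None of these probes passed the test.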

How the data were processed

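RNA of 10 pooled embryos per array was hybridised in 1 colour to Agilent mouse arrays, 4 arrays a concentration, described by the submitters as biological replicates. The deposited scanner files hold intensity values per probe (gProcessedSignal, background-corrected by Agilent Feature Extraction; the submitters' processing notes list version 9.5.3.1, and the headers of these 8 files name 10.5.1.1). The authors' series value table holds log2 values, which followed the scanner intensities (median absolute difference 0.00514 between array-pair differences) and served as an alternative; its centring is the authors' own.

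Control spots were left out, spots of a probe averaged, and log2 of the intensity taken relative to the array's 75th percentile. Of 41174 probes, 39517 reached an intensity of 10 in at least 1 2-cell array. The concentrations were compared with limma 3.58.1 (R 4.3.3, lmFit and eBayes) over the 8 arrays, without covariates, with Benjamini-Hochberg adjustment at 0.01, the level used in the study; 1.61 prior degrees of freedom were estimated. The fit was also run on simulated data with planted differences. Their recovery is not reported here, so the run gives no measure of sensitivity. Of the tested probes 23043 had a gene symbol through RefSeq accessions, for 16309 genes, and each list member was represented by its brightest probe; the ranked genes are given on the probe with the smallest p. Single values were compared with exact two-sided permutation tests that ran through all 70 divisions of the arrays. The p values of Spic, Eif1a and Pou5f1 from these tests were adjusted with scipy 1.17.1. The number of arrays limits the precision. No spot was saturated.

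Named were Spic, Eif1a and Pou5f1, every ETS factor well above background on all 8 arrays, the 3 brightest members of every other list (some members are not reported here), members with an unadjusted p under 0.05, and the 5 genes with the smallest p in each direction; no gene passed the test, so none was named for passing it. Other members in the text were chosen with their values in view. The members and lists were chosen with earlier results of these data known. Promoter windows were read from RefSeq (GRCm38). Alternatives covered scaling, background correction, filters, outlier spots, slide and replicate blocks, a joint fit, the methods' test and the removal of each array.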

Additional observations from a re-analysis of the deposited data

Results flagged for a closer look

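In 7 of 150 sets of 4 arrays, over 75 named probes, 1 array stood apart from the other 3 of its concentration by Dixon's test at the 95% level, where chance flags about 1 set in 20. Zfp24 read -3.85 in replicate 2 of 1.0 mg/ml and -3.61 to -3.57 in the others. Myoz1 read -3.35 in replicate 1 of 1.0 mg/ml and -3.15 to -3.13 in the others. Elk4 read -0.061 in replicate 1 of 1.0 mg/ml and 0.26 to 0.27 in the others. Runx1 read -6.06 in replicate 3 of 1.0 mg/ml, the array on which it was well above background, and -8.81 to -8.68 in the others. Sp110 read 6.92 in replicate 3 of 1.0 mg/ml and 7.13 to 7.16 in the others. Zar1 read 0.88 in replicate 3 of 0.1 mg/ml and 0.63 to 0.66 in the others. Lhcgr read -8.45 in replicate 4 of 0.1 mg/ml and -8.72 to -8.69 in the others. The flags were spread over 5 of the 8 arrays.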

How the results depend on the processing

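The count of probes passing an adjusted p of 0.01 in limma was 0 under every alternative except the joint fit of all 2-cell groups. That fit gave 2, both higher at 1.0 mg/ml and without a gene symbol. The methods' one-way test with Tukey's HSD gave 55 (28 higher, 27 lower), with the one-way p adjusted over probes and Tukey's p not. When Tukey's p was adjusted over all probes, 1 probe passed. None of the 55 was in a gene list. Without each array in turn the count in limma was 0 to 0. At an adjusted p under 0.05 the joint fit gave 4 and the removals 0 to 5 in limma, 5 without replicate 4 and 3 without replicate 3 of 0.1 mg/ml. For the Spic difference, removals gave -0.19 to 0.031, the last without replicate 4 of 1.0 mg/ml, where the sign turned. For Eif1a, removals gave 0.22 to 0.34 and the slides 0.43 and 0.15. The median of the ETS factors was -0.21 with arrays centred on their medians, -0.054 within slide 2, and -0.21 to -0.14 over the removals. The median of the early 2-cell genes was -0.03 to 0.12 over the removals. The share of probes bounded within 2-fold was 83.9% with normexp background correction, 58.0% without a filter, 70.6% with the stricter filter, 48.5% in the joint fit, 54.1% with a variance trend (chosen after seeing the data), and 52.1 to 53.2% over the removals. For Pou5f1, removals gave -0.18 to 0.018, the last without replicate 3 of 1.0 mg/ml, where its sign turned. With normexp several differences were over 1.5 times smaller, -1.85 for Runx1, -0.43 for Adam11, 0.66 for Pde1a, 0.73 for Zfp24, 0.65 for Etv2, 0.56 for Lhcgr, -0.36 for Syk and 0.44 for Nanog. The causes were not tested.

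Replicate numbers are shared between the groups in the labels, but same-numbered arrays did not deviate together (r = -0.09, -0.03, 0.06 and -0.03 across probes). With the replicate block 0 probes passed in limma, 1799 had an unadjusted p under 0.05, and 54.5% of probes were bounded within 2-fold. Dim probes limit the comparison: 25538 of 39517 were well above background on all 8 arrays. Within-slide values are given without a test.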

Other observations

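Genes with more than 1 probe gave a second reading, and those named here were chosen after their values were seen. Of 3953 genes with at least 2 probes well above background on all 8 arrays, 357 had at least 1 probe with an unadjusted p under 0.05. For 26 at least 2 probes had one with the higher mean at 1.0 mg/ml, for 29 with the lower, and for 2 in opposite directions. Of all single probes well above background on all 8 arrays, 4.97% had an unadjusted p under 0.05 in limma, and a gene with several probes has several chances. How many genes would have 2 such probes without any effect of the concentration was not tested. Atf7ip, a partner of the histone methyltransferase Setdb1, read 2.15, 2.29, 2.6 and 2.32 at 1.0 mg/ml and 2.92, 3.01, 2.78 and 2.96 at 0.1 mg/ml, a difference of -0.58. Its second probe differed by -0.59, and a dimmer one by 0.39. Ryr1, the calcium release channel of muscle, differed by -0.77 and -0.78 on its 2 probes. Gata2, a factor of blood and trophoblast cells, read -3.83, -2.07, -1.53 and -2.47 at 1.0 mg/ml and -0.48, 1.28, -0.68 and 0.75 at 0.1 mg/ml, a difference of -2.69, and its second probe differed by -3.84. Probes of 1 gene were read on the same arrays and are not independent replicates, and none of these probes passed in limma. In the methods' one-way test with Tukey's HSD both Gata2 probes, both Ryr1 probes and the 2 brighter Atf7ip probes were among the 55 probes called. The difference tested there comes from the same 8 arrays. Its first step, over all 2-cell groups, was passed by 17869 probes, and Tukey's p was not adjusted over probes. Being among the 55 is therefore no separate support.

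Bhlhe23, a basic helix-loop-helix transcription factor, read -2.98, -1.63, -3.49 and -2.20 at 1.0 mg/ml and -8.70, -5.54, -8.25 and -8.41 at 0.1 mg/ml, well above background on 4 and 1 of 4 arrays. As 3 of the 4 arrays of 0.1 mg/ml were at background, no exact difference is given (adjusted p = 0.48 in limma). The probe was among the 55 called with Tukey's HSD, on the same 8 arrays and with a p not adjusted over probes. On the same probe the mean level was 1.36 ± 0.37 (SD) in IVF, -7.53 ± 2.75 in TSA(-) and -1.70 ± 1.15 in TSA(+) embryos. Single TSA(-) arrays read from -9.63 to -1.89. The first Gata2 probe, with a mean of -2.48 at 1.0 mg/ml and 0.22 at 0.1 mg/ml, averaged 1.38 ± 0.39 (SD) in IVF, -0.53 ± 1.44 in TSA(-) and 0.91 ± 0.64 in TSA(+) embryos. These groups were read with another scanner, and the levels are a description only.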
